A study of Mus musculus with 16 samples.

Results

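The complement system is described here through 9 genes of its classical pathway and of the steps that follow it, in whole brain of Tecpr2 ki/ki mice, called ki/ki here, and their wt/wt controls. These genes are the C1q subunits C1qa, C1qb and C1qc, the C4 genes C4a and C4b, C3, the regulators Serping1 and Clu, and the receptor subunit Itgam. They were taken by name from the 55404 genes of the series table, and all 9 had values high enough to be tested. They were selected on their measured values in these mice, that is with the difference between the genotypes known, so that this difference is given as a description, without a p-value.

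The series holds 8 mice of each genotype, with 1 total RNA library of the whole brain per mouse. All mice were untreated males of 5 months on a C57BL/6J background. The ki/ki mice are homozygous for the L1152fs knock-in, which the study's methods name L1152Yfs, a frameshift made by editing of zygotes with Cas9, and therefore carry the change in every cell rather than in a single brain region or cell type. The wt/wt controls carry the unedited gene, and the labels name no batch.

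In the classical pathway, C1q recognises antibodies, dying cells or synapses, the proteases C1r and C1s cut C4 and C2, and the resulting enzyme cuts C3. Fragments of C4 and C3 stay on the target, where phagocytes bind those of C3 through receptors such as CR3, which Itgam and Itgb2 form. In the brain, C1q is made mainly by microglia and border macrophages, while C4 is made mainly by astrocytes and is known to increase when these become reactive. Bulk tissue does not separate a change in the number of cells of a type from a change in RNA per cell.

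The values are linear normalized values per gene and mouse, rounded to whole numbers by the authors. They added up to between 11964284 and 12252324 per mouse, which no longer shows the depth. Depth was estimated from whole numbers that are skipped or repeated among low values, which gave 9.23 to 14.3 megareads on genes for ki/ki libraries (median 11.96) and 10.1 to 15.4 megareads for wt/wt libraries (median 13.1). Tecpr2 itself lay between 274 and 320 in ki/ki and between 928 and 1002 in wt/wt mice, so that each library matched its label. Brain tissue was apparent from its cell type genes, with the 8 neuron genes summing to between 46076 and 50744 per mouse and the 7 oligodendrocyte genes to between 46013 and 52162. Such sums do not show which brain regions each library holds. No library stood apart in these sums.

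C1qa, C1qb and C1qc encode the chains that assemble into C1q. They lie side by side on the minus strand of mouse chromosome 4 (GRCm38), C1qb at chr4:136880129-136886187, C1qc at chr4:136889804-136893065 and C1qa at chr4:136895917-136898803. The reads had been aligned to the later build GRCm39, so the positions come from the annotation used here and not from the authors' files. Because these neighbours shared the direction of their genotype difference, the 250 bases before the RefSeq start site (GRCm38.p6, minus strand, written 5′ to 3′) are shown for C1qb, at chr4:136886201-136886450, and for C1qc, at chr4:136892915-136893164. Capitals mark GAGGAA, the core letters bound by the myeloid factor PU.1, or its reverse complement TTCCTC, and TGCTGA, a half-site of MAF factors.
C1qb: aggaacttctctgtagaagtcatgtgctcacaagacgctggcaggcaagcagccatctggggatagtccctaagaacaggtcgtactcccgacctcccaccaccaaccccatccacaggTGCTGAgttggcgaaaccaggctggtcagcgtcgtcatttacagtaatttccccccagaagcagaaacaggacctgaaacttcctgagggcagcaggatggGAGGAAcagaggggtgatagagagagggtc
C1qc: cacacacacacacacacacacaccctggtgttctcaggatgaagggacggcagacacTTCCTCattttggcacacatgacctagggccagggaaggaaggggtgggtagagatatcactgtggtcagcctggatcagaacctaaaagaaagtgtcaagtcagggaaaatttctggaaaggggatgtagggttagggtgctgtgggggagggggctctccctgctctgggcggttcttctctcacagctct

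In C1qb, TGCTGA began 131 bases and GAGGAA 30 bases before the start site, and in C1qc TTCCTC began 193 bases before it. Both strands were searched for both motifs over 250 bases before and 50 after the start, and windows were found for 4 of the 9 genes (C1qb, C1qc, C3 and Itgam). Itgam held GAGGAA or its reverse complement 3 times, and C3 held the reverse complement of TGCTGA 1 time, each read in the direction of the gene. Such letters are common, since GAGGAA was found in 28.3% and TGCTGA in 19.5% of 32851 promoter windows of the same length, and a match does not show that a factor binds.

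All C1q subunits had higher values in ki/ki mice, with ratios of the means between 1.23 and 1.34. C1qa (ENSMUSG00000036887) had values of 227, 247, 258, 221, 252, 256, 212 and 239 in ki/ki mice 1 to 8 and of 176, 193, 190, 185, 208, 198, 189 and 210 in wt/wt mice 1 to 8. The genotypes did not overlap, although only 2 units lay between ki/ki mouse 7 and wt/wt mouse 8. The means were 239 ± 17.2 and 194 ± 11.4 (SD, n = 8 each), a ratio of 1.23, and the log2 fold change on the log2(value + 1) scale was 0.30 (standard error 0.056).

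C1qb (ENSMUSG00000036905) showed the widest separation of the C1q subunits. Its values were 252, 286, 267, 243, 253, 242, 243 and 222 in ki/ki and 183, 185, 207, 189, 185, 183, 150 and 217 in wt/wt mice. Again no wt/wt mouse reached the lowest ki/ki mouse. From 187 ± 19.7 in wt/wt mice the mean was higher by a ratio of 1.34 in ki/ki mice, at 251 ± 19.0 (SD, n = 8 each), and the log2 fold change was 0.42 (standard error 0.060).

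For C1qc (ENSMUSG00000036896), the ki/ki values were 295, 274, 278, 227, 279, 273, 247 and 258, against 199, 201, 234, 230, 206, 235, 201 and 233 in wt/wt mice. Here the genotypes overlapped through ki/ki mouse 4, which lay below 4 of the wt/wt mice, while the other 7 exceeded every wt/wt mouse. The mean was 266 ± 21.4 in ki/ki and 217 ± 16.9 in wt/wt mice (SD, n = 8 each), with a log2 fold change of 0.29 (standard error 0.056).

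The subunits kept nearly the same proportions in both genotypes. Of the summed C1q values, C1qa made up 31.6% ± 1.42, C1qb 33.2% ± 1.73 and C1qc 35.2% ± 1.54 in ki/ki mice. In wt/wt mice the shares were 32.4% ± 1.79, 31.3% ± 1.79 and 36.3% ± 1.49 (SD, n = 8 each). The share of C1qb was higher by 1.93 percentage points in ki/ki mice, with 4 of the 8 mice exceeding every wt/wt mouse, and the ranges overlapped for each subunit. Per kilobase of exon, C1qa and C1qb did not differ beyond their spread, at 230 ± 16.6 and 231 ± 17.5 in ki/ki mice and 186 ± 10.99 and 172 ± 18.1 in wt/wt mice, and C1qc was lower, at 138 ± 11.1 and 113 ± 8.74 (SD, n = 8 each).

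C4 provides the fragment that binds covalently to targets after C1s has cut it. The mouse has a pair of C4 genes in the MHC region of chromosome 17, C4b at chr17:34728380-34743882, which encodes the active C4 protein, and C4a at chr17:34809092-34823464, also known as the sex-limited protein gene Slp (both GRCm38, minus strand). The annotation used here gives C4a as a processed transcript without coding sequence. Over 5367 aligned bases of their longest transcripts they were 96.1% identical, with 207 differing bases and 12 identical runs of 100 bases or more, the longest of 433 bases. Of the windows of 100 bases in their transcripts, 13.1% in C4a and 15.2% in C4b occurred in the other gene too. Whether such reads could be assigned through their mates was not tested. To show where the genes can be told apart, the 60 bases with the most differences are given, at chr17:34735430-34735489 in C4b and chr17:34816086-34816145 in C4a, both in exon 21 of 41 exons, on the minus strand and written 5′ to 3′. Capitals mark the 13 bases that differ.
C4b: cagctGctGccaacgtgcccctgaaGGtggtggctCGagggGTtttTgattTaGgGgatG
C4a: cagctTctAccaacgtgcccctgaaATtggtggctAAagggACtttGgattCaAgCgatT

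Of the 9 genes, C4b (ENSMUSG00000073418) was separated most clearly by genotype. Its values were 587, 615, 599, 552, 523, 545, 551 and 551 in ki/ki and 336, 331, 328, 364, 369, 368, 357 and 344 in wt/wt mice. The lowest ki/ki mouse, mouse 5, lay far above the highest wt/wt mouse, also mouse 5. The means of 565 ± 31.3 and 350 ± 16.9 (SD, n = 8 each) had a ratio of 1.62, with a log2 fold change of 0.69 (standard error 0.041).

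C4a (ENSMUSG00000015451) was lower in level and more variable. Its values were 67, 93, 65, 56, 82, 89, 71 and 101 in ki/ki and 58, 48, 56, 56, 50, 51, 55 and 43 in wt/wt mice. All ki/ki mice other than mouse 4 exceeded every wt/wt mouse, and mouse 4 equalled wt/wt mice 3 and 4. The mean was 78.0 ± 15.6 against 52.1 ± 5.06 (SD, n = 8 each), a ratio of 1.496 and a log2 fold change of 0.55 (standard error 0.106).

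C4a made up 12.1% ± 2.27 of the summed C4 values in ki/ki and 12.98% ± 1.27 in wt/wt mice (SD, n = 8 each). The ranges overlapped, from 9.21% to 15.5% and from 11.1% to 14.7%. Summed over both genes, C4 was 643 ± 33.9 in ki/ki and 402 ± 17.5 in wt/wt mice (SD, n = 8 each), again without overlap. A split of reads between the genes does not alter this sum, but shared reads that were dropped or counted in both genes would. Per kilobase of exon, C4b reached 99.3 ± 5.50 and 61.4 ± 2.97, and C4a reached 12.6 ± 2.52 and 8.40 ± 0.815, in ki/ki and wt/wt mice.

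**Figure D1:**
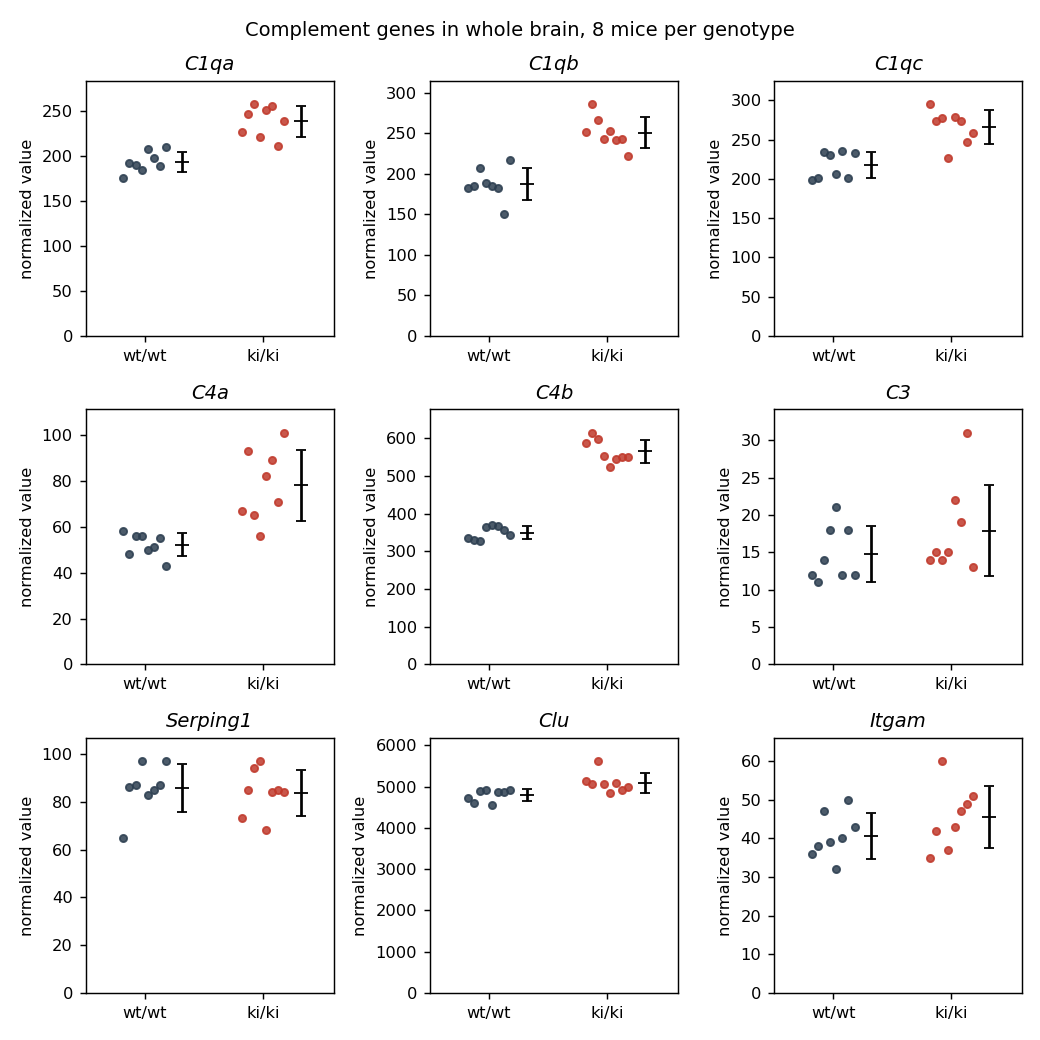
Normalized value (vertical axis, from 0) of the 9 complement genes in each of 8 wt/wt (dark) and 8 ki/ki mice (red), with the mean and SD beside the points and the mice of each genotype in order of their number. C1qa, C1qb and C4b have no overlap between genotypes, C1qc and C4a overlap through a single ki/ki mouse, and C3, Serping1, Clu and Itgam overlap more widely.

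C3 (ENSMUSG00000024164, chr17:57203970-57228136, minus strand), on which all complement pathways converge and which the liver secretes into plasma, was low in brain. Its values were 14, 15, 14, 15, 22, 19, 31 and 13 in ki/ki and 12, 11, 14, 18, 21, 12, 18 and 12 in wt/wt mice. The highest value, in ki/ki mouse 7, stood above the rest, 4 wt/wt mice lay below every ki/ki mouse, and the genotypes overlapped in the other mice. The means were 17.9 ± 6.10 and 14.8 ± 3.73 (SD, n = 8 each) and the log2 fold change was 0.24 (standard error 0.193), which was 0.12 without ki/ki mouse 7. At this level the depth sets the precision, since counting noise alone gave an SD of 24.2% and 25.5% of the mean.

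Serping1 encodes the C1 inhibitor, which blocks C1r and C1s, and did not separate the genotypes. The gene (ENSMUSG00000023224) lies at chr2:84765387-84775444 on the minus strand. Its values were 73, 85, 94, 97, 68, 84, 85 and 84 in ki/ki and 65, 86, 87, 97, 83, 85, 87 and 97 in wt/wt mice. Both genotypes reached 97, and the means of 83.8 ± 9.62 and 85.9 ± 9.96 (SD, n = 8 each) gave a log2 fold change of -0.035 (standard error 0.089), the only negative fold change among the 9 genes. It was 0.006 without ki/ki mouse 5.

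Clu encodes clusterin, a secreted chaperone that inhibits the terminal complex and is abundant in astrocytes. Per kilobase of exon it was the most abundant of the 9 genes, at 1481 ± 68.4 in ki/ki and 1396 ± 42.1 in wt/wt mice (SD, n = 8 each). The gene (ENSMUSG00000022037, chr14:65968483-65981547, plus strand) had values of 5138, 5059, 5618, 5062, 4837, 5090, 4918 and 4990 in ki/ki and of 4726, 4614, 4902, 4921, 4563, 4877, 4862 and 4925 in wt/wt mice. Of the ki/ki mice, 6 exceeded every wt/wt mouse, and mice 5 and 7 lay within the wt/wt range. The log2 fold change was 0.084 (standard error 0.022), and it was 0.063 without ki/ki mouse 3, which had the highest value.

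Itgam, which encodes the integrin chain CD11b and marks microglia and other myeloid cells, was low and overlapped between genotypes. The gene (ENSMUSG00000030786, chr7:128062640-128118491, plus strand) had values of 35, 42, 60, 37, 43, 47, 49 and 51 in ki/ki and of 36, 38, 47, 39, 32, 40, 50 and 43 in wt/wt mice. The means were 45.5 ± 8.07 and 40.6 ± 5.85 (SD, n = 8 each), with a log2 fold change of 0.15 (standard error 0.122). In this annotation 68.7% of its exon bases were also exon bases of Gm49368 on the same strand, a gene whose mean value was 0.06, and how the authors' counting treated such reads in GRCm39 was not tested.

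In the fit over all genes, C1qa, C1qb, C1qc, C4a and C4b had an adjusted p under 0.1 and were higher in ki/ki mice, while C3, Serping1, Clu and Itgam did not pass. In that direction 22 of 23244 tested genes passed, or 0.0946%, and 3 of the 9 genes had higher values without overlap, against 0.0645% of all tested genes. Nothing is read from these shares, since the genes had been chosen with this contrast known.

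The spread between mice was close to counting noise for most of the genes. For C4b, the SD was 5.54% of the mean in ki/ki and 4.84% in wt/wt mice, and counting noise at the estimated depth accounted for 4.30% and 5.24%. Clu, with many reads, had an SD of 4.62% and 3.02%, above the 1.43% and 1.42% of counting noise. C4a had an SD of 20.1% of the mean in ki/ki mice, where counting noise was 11.6%, and of 9.70% in wt/wt mice, where it was 13.6%. This difference in spread was not tested.

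**Figure D2:**
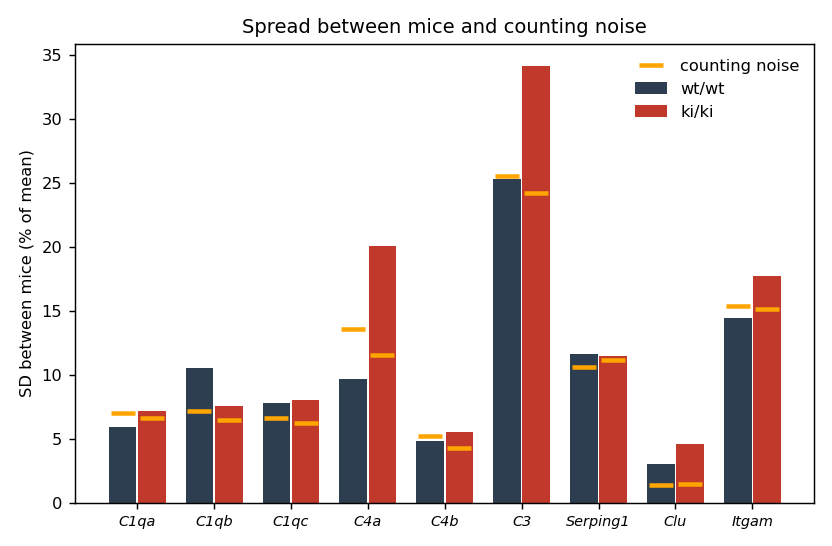
SD between the 8 mice of a genotype as a percentage of the mean (bars, vertical axis from 0) for the 9 genes, with the SD that counting noise alone would give at the estimated depth (orange lines). Most bars end near their line. Those of C4a and C3 in ki/ki mice (20.1% and 34.2%), of C1qb in wt/wt mice (10.5%) and of Clu in both genotypes end clearly above theirs.

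C1q, as the mean log2(value + 1) of its subunits, was set against C4b in each mouse, because these are known mainly from microglia and from astrocytes. C1q was 7.98 ± 0.088 in ki/ki and 7.64 ± 0.095 in wt/wt mice (SD, n = 8 each), a difference of 0.34. For C4b, the means were 9.14 ± 0.079 and 8.45 ± 0.070, a difference of 0.69. C4b minus C1q was thus 1.17 ± 0.085 in ki/ki and 0.81 ± 0.120 in wt/wt mice, and the lowest ki/ki mouse, at 1.00, lay just above the highest wt/wt mouse, at 0.995. This difference of 0.35 between genotypes stayed between 0.33 and 0.38 when any 1 mouse was left out. In linear values, C4b amounted to 0.749 ± 0.043 of the summed C1q values in ki/ki and to 0.587 ± 0.048 in wt/wt mice.

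Mice with high C1q were not regularly those with high C4b. ki/ki mouse 2 had the highest value of both, mouse 4 had the lowest C1q and mouse 5 the lowest C4b. Among wt/wt mice, mouse 8 had the highest C1q, mouse 5 the highest C4b, and mice 7 and 3 had the lowest C1q and C4b. Across the 8 ki/ki mice, Pearson's r of C1q and C4b was 0.49 (exact permutation test, two-sided, p = 0.230) and Spearman's rho was 0.32 (exact permutation test, p = 0.434), and r was 0.49 without the 2 mice farthest from the median of C1q. In wt/wt mice r was -0.047 (exact permutation test, p = 0.910), rho was -0.048 (exact permutation test, p = 0.935), and r without these 2 mice was 0.24. The SD of C4b was near counting noise, at 5.54% against 4.30% of the mean in ki/ki and 4.84% against 5.24% in wt/wt mice. With 8 mice per genotype, a low r therefore does not show that C1q and C4b vary apart. The genotypes form separate clusters, so no r over all 16 mice is given.

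**Figure D3:**
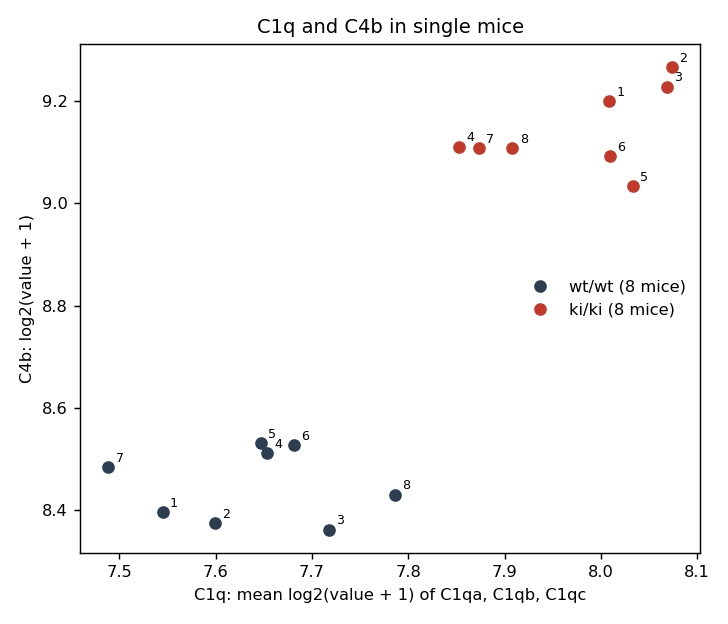
C4b (vertical axis) against C1q, the mean of C1qa, C1qb and C1qc (horizontal axis), both as log2(value + 1), for 8 wt/wt (dark) and 8 ki/ki mice (red) with their numbers. The genotypes form clusters that do not overlap on either axis, and within a cluster r is 0.49 in ki/ki and -0.047 in wt/wt mice.

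C1q was next compared with the microglia in the tissue, as far as 12 microglia genes can show it. In ki/ki mice each of the 12 had a higher fitted value, with a median log2 fold change of 0.10, and none of the 12 passed the test in limma. Csf1r, the receptor that microglia need for survival, was 708 ± 37.3 and 698 ± 34.9, and Cx3cr1, the fractalkine receptor, was 423 ± 24.4 and 393 ± 26.3 in ki/ki and wt/wt mice (SD, n = 8 each). The sum of the 12 genes lay between 2907 and 3108 in ki/ki and between 2708 and 2963 in wt/wt mice. C1q minus the mean log2(value + 1) of the 12 genes was 0.29 ± 0.076 in ki/ki and 0.047 ± 0.080 in wt/wt mice (SD, n = 8 each), so that C1q differed by 0.24 more than these genes, with 7 of 8 ki/ki mice exceeding every wt/wt mouse. Of 8 genes shared by myeloid cells, such as Laptm5 and Ptprc, 6 were higher with a median of 0.24, none passed the test, and the sum of the 8 lay between 926 and 1353 and between 790 and 977. Against the mean of these genes C1q was higher by 0.19, and 2 of 8 ki/ki mice exceeded every wt/wt mouse.

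C4b was compared in the same way with astrocyte genes. The sum of 11 such genes lay between 66707 and 69337 in ki/ki and between 64084 and 67911 in wt/wt mice. Of these, 8 were higher, with a median log2 fold change of 0.039, and Slc1a2, the main glutamate transporter of astrocytes, passed the test at 0.064 (standard error 0.011) with an adjusted p of 0.00229 in limma. C4b minus the mean of the 11 genes was higher by 0.66 in ki/ki mice, without overlap. Gfap, the intermediate filament of reactive astrocytes, had a difference near that of C4b, at 2114 ± 102 and 1411 ± 56.2 (SD, n = 8 each), a log2 fold change of 0.58 (standard error 0.027). C4b minus Gfap was -1.90 ± 0.059 in ki/ki and -2.01 ± 0.106 in wt/wt mice, a difference of 0.11 with a single ki/ki mouse, mouse 2, above every wt/wt mouse. Of the 19 genes listed for reactive astrocytes 18 were tested, 12 were higher with a median of 0.044, and Gfap alone passed the test.

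**Figure D4:**
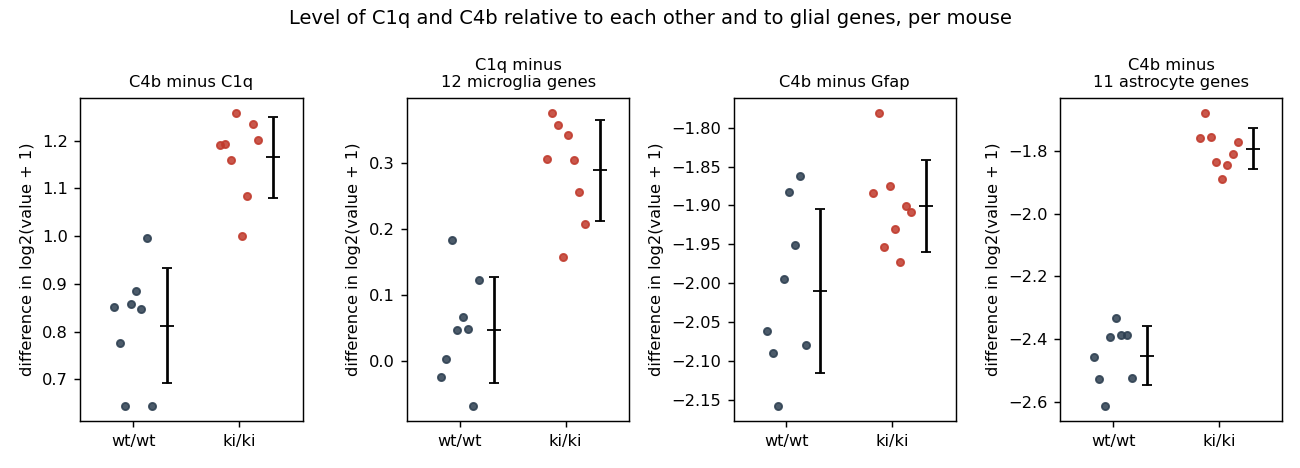
Difference in log2(value + 1) per mouse (vertical axes, which do not start at 0) between C4b and C1q, C1q and the mean of 12 microglia genes, C4b and Gfap, and C4b and the mean of 11 astrocyte genes, for 8 wt/wt (dark) and 8 ki/ki mice (red), with mean and SD. The genotypes do not overlap for C4b minus C1q and for C4b minus the astrocyte genes, and overlap widely for C4b minus Gfap.

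The pairs that could track each other were compared within each genotype, as 14 pairs or 28 relations. None passed an adjusted p of 0.05 (exact permutation tests, smallest adjusted p = 0.447 for r and 0.203 for rho), and 1 had an unadjusted p under 0.05 for r. That pair was C1q with Gfap in wt/wt mice, where r was 0.78 (exact permutation test, p = 0.0214) and rho was 0.88 (exact permutation test, p = 0.00724), but r was 0.49 without the 2 mice farthest from the median of C1q. In ki/ki mice the same pair had r = 0.55 and rho = 0.43 (exact permutation tests, p = 0.157 and 0.299), and r = 0.38 without such 2 mice.

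C4b and Gfap had r = 0.69 and rho = 0.56 in ki/ki mice (exact permutation tests, p = 0.0507 and 0.154), and r = 0.75 without the 2 farthest mice. In wt/wt mice their r was -0.35 and rho -0.40 (exact permutation tests, p = 0.414 and 0.327), and r was -0.16 without these mice. C1q and the microglia genes had r = 0.53 in ki/ki and 0.55 in wt/wt mice (exact permutation tests, p = 0.138 and 0.160), with rho of 0.40 and 0.48 (exact permutation tests, p = 0.327 and 0.243). Without the 2 mice farthest from the median of C1q, r was 0.064 and -0.064, but this step narrows the range of C1q and can lower r by itself. With any 1 mouse left out, r lay between 0.31 and 0.70 in ki/ki and between 0.20 and 0.94 in wt/wt mice. Clu and the astrocyte genes had r = 0.75 and 0.58 (exact permutation tests, p = 0.0505 and 0.129), rho = 0.83 and 0.76 (exact permutation tests, p = 0.0154 and 0.0368), and r = 0.70 and 0.73 without the 2 farthest mice, in ki/ki and wt/wt mice.

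Within a genotype the C1q subunits followed each other loosely. Their SD was mostly close to counting noise, and farthest above it for C1qb in wt/wt mice (10.5% against 7.16%). A loose relation therefore does not show that the subunits vary apart. Their r lay between 0.34 and 0.58 in ki/ki and between 0.31 and 0.63 in wt/wt mice, with rho between 0.32 and 0.56 and between 0.40 and 0.50. The smallest p of these pairs was that of C1qb and C1qc in wt/wt mice (exact permutation test, p = 0.0711). C4a and C4b had r of -0.085 and -0.017, and rho of -0.24 and -0.18, in ki/ki and wt/wt mice (exact permutation tests, p = 0.839, 0.966, 0.565 and 0.674). In wt/wt mice the SD of C4a (9.70% against 13.6%) and of C4b (4.84% against 5.24%) lay below counting noise. In ki/ki mice it lay above, at 20.1% against 11.6% and at 5.54% against 4.30%. An r near 0 therefore does not show that C4a and C4b vary apart.

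The genes whose pattern was most like that of C1q and of C4b were sought over 16 mice after the mean of each genotype had been removed, among 13758 genes with a mean value of at least 50. For C1q these were Rpl5, Mtpn, Abcb10, Dpm3, Rps29, Crym, Atp6v1g2, Sult4a1, D430019H16Rik and Adra1b, with r from 0.91 down to 0.80. For C4b they were Tagap, Zfand2a, Npas2, Celf5, Gm15624, Dlg4, Bphl, Nptx2 and Notch1, with r from 0.84 down to 0.74. None of these genes belongs to the microglia or astrocyte lists, but these hold only 12 and 11 genes, so nothing is read from this. The median r with C1q was 0.15 over the 12 microglia genes, 0.34 over the 11 astrocyte genes, 0.42 over the 7 oligodendrocyte genes and 0.46 over the 8 neuron genes, against 0.049 over all genes compared. With the mean log2(value + 1) of each list, r with C1q was 0.54, 0.69, 0.49 and 0.58 in the same order. The microglia genes had lower values than the neuron genes, so that counting noise can lower r of their single genes more. With C4b the median r was 0.050 over the microglia genes, -0.017 over the astrocyte genes, of which 4 of 11 were above 0, 0.13 over the oligodendrocyte genes and 0.076 over the neuron genes, against -0.0002 over all genes. With the mean of each list, r with C4b was 0.29, 0.048, 0.25 and 0.25 in this order. All points share the same 16 libraries and their depth, and these values are a description, without a test.

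The remaining complement system was covered by 48 other genes, of which 30 were tested. In ki/ki mice 15 of these had a higher and 15 a lower fitted value, with a median log2 fold change of 0.0008, against -0.001 over all tested genes. Itgax alone passed the test, 1 gene of 30 where 0.133% of all genes passed in either direction. At an unadjusted p under 0.05 there were 6 of 30, against 6.08% of all tested genes.

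Itgax encodes CD11c, an integrin chain that pairs with Itgb2 to bind C3 fragments, and is known from activated microglia and dendritic cells. Its values were 9, 10, 6, 8, 10, 10, 8 and 9 in ki/ki and 2, 5, 2, 3, 3, 7, 1 and 4 in wt/wt mice. All ki/ki mice other than mouse 3 exceeded every wt/wt mouse. The means of 8.75 ± 1.39 and 3.38 ± 1.92 (SD, n = 8 each) correspond to 1.26 on the log2 scale (standard error 0.30), with an adjusted p of 0.0681 (limma, Benjamini-Hochberg). The call rests on few reads, and it was lost without a filter on low values (adjusted p = 0.103) and when any of ki/ki mice 1, 2, 4, 5, 6, 7 and 8 or of wt/wt mice 1, 3, 4, 5 and 7 was left out (adjusted p from 0.103 to 0.170), with 0 genes of the list called then.

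The other receptors did not pass. Megf10, an engulfment receptor of astrocytes that binds C1q, was 694 ± 21.8 and 679 ± 40.3, and C1qbp, a mitochondrial protein also described as binding C1q, was 266 ± 14.7 and 272 ± 23.1 (SD, n = 8 each, ki/ki and wt/wt). Itgb2, the partner of Itgam and Itgax, was 50.2 ± 8.43 and 39.5 ± 6.99, 0.34 on the log2 scale (adjusted p = 0.560 in limma), and is named after its values had been seen. Over the 9 receptors tested the median was 0.075.

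The proteases that link C1q to C4 and C3 did not pass the test. In ki/ki mice all 4 tested were lower, with a median log2 fold change of -0.27. C1ra was 23.1 ± 5.51 in ki/ki and 26.1 ± 3.48 in wt/wt mice, and C2 was 13.2 ± 4.06 and 15.1 ± 6.31 (SD, n = 8 each). C1rb, a paralog of C1ra named here after its values had been seen, was at 3.00 ± 1.69 and 6.38 ± 1.77, -1.01 on the log2 scale (adjusted p = 0.527 in limma). The annotation gives 42.8% of the exon bases of C2 and 79.5% of those of Cfb also to Gm20547 on the same strand, a gene listed at 0 in all mice.

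In the lectin pathway 3 of 9 genes were tested and none passed. Masp1, a protease of this pathway, was 115 ± 11.5 and 115 ± 11.05, and Colec12, a scavenger receptor of the collectin family, was 162 ± 15.6 and 145 ± 15.3 (SD, n = 8 each, ki/ki and wt/wt), with an adjusted p of 0.772 in limma. Of the alternative pathway, Cfp, which encodes properdin and stabilises the C3-cutting enzyme, was 83.6 ± 12.2 and 82.6 ± 11.8, and Cfb was 5.25 ± 2.87 and 6.12 ± 3.56. Of the terminal pathway, which forms pores in membranes, 2 of 7 genes were tested, C7 with 7.12 ± 2.75 and 5.38 ± 1.69 and C8g with 15.0 ± 6.74 and 14.6 ± 5.26.

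None of the regulators passed either. Vtn, vitronectin, which inhibits the terminal complex, was 497 ± 20.03 and 506 ± 31.7. The membrane and secreted regulators had a median of 0.0005 over 8 genes, all of which were tested. Their most abundant genes were Csmd1, which was 2096 ± 79.5 and 2094 ± 114, and Susd4, which was 982 ± 40.5 and 984 ± 53.5 (SD, n = 8 each, ki/ki and wt/wt).

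**Figure D5:**
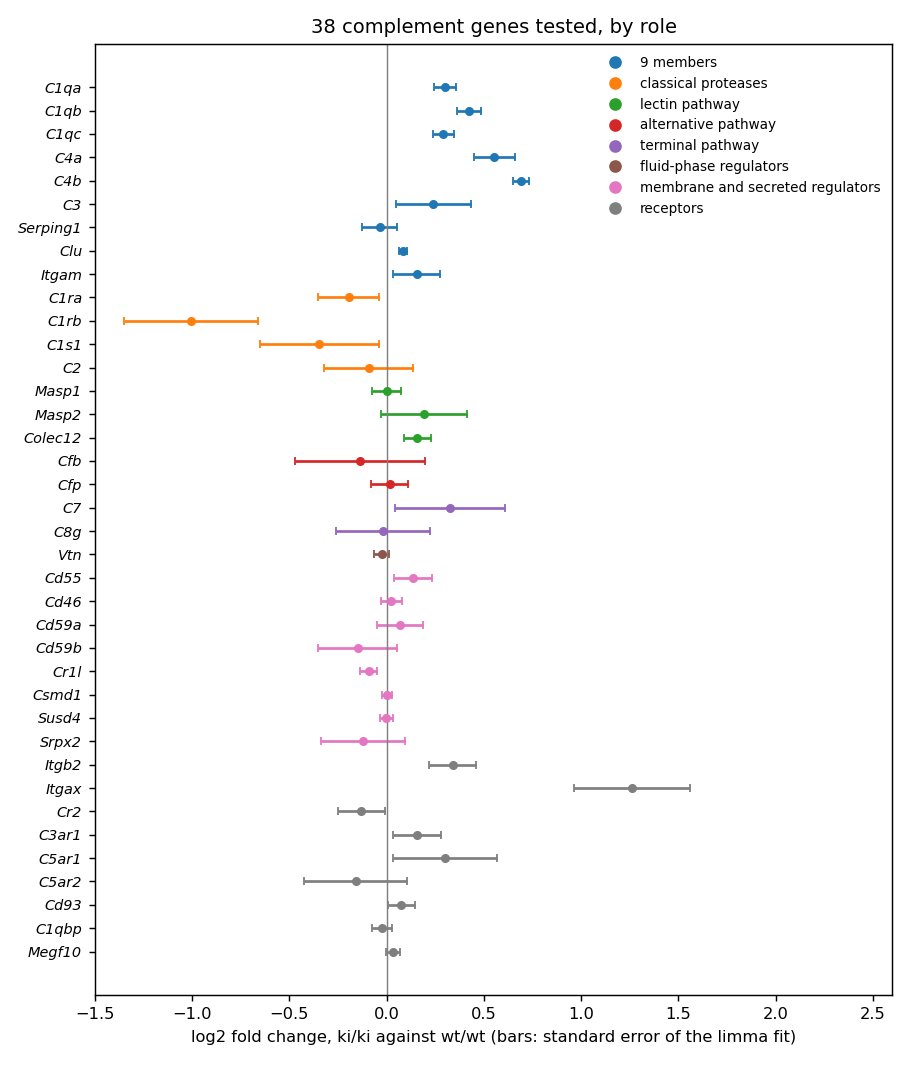
Log2 fold change of ki/ki against wt/wt mice on the log2(value + 1) scale (horizontal axis, points) with the standard error of the limma fit (bars) for the 9 genes described and 29 other complement genes tested, coloured by role. C4b (0.69), C4a (0.55) and the C1q subunits lie right of 0, the 4 classical proteases lie left of it, and Itgax (1.26) lies farthest right with a wide bar.

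Markers of other cell types that could contribute complement RNA were summed in each mouse. Liver RNA was near 0, with Alb, Fgb and Ahsg listed at 0 in all mice and a sum over 6 genes between 2 and 17 in ki/ki and 4 and 12 in wt/wt mice. Of 13 blood leukocyte genes 2 were tested, with a median log2 fold change of -0.011, and the sums lay between 39 and 125 and between 44 and 68. The 5 red blood cell genes all had a higher fitted value, with a median of 0.16, although the mean of Hbb-bt was lower in ki/ki mice. None of the 5 passed, and their sums overlapped, between 239 and 372 and between 176 and 343.

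Of 8 border macrophage genes, such as Mrc1, 3 were higher, with a median of -0.042 and sums between 375 and 413 and between 356 and 404. The 10 choroid plexus genes had a median of -0.042 and sums between 4683 and 5361 and between 5191 and 5829, the 11 fibroblast genes a median of 0.001 and sums between 1348 and 1648 and between 1346 and 1552, and the 8 endothelial genes a median of -0.015 and sums between 3020 and 3206 and between 2989 and 3216. None of the genes on these lists passed the test. Of the 7 oligodendrocyte genes 2 and of the 8 neuron genes 1 were higher, with medians of -0.019 and -0.035, and Gad1, which makes GABA, passed with -0.087 (adjusted p = 0.0681 in limma).

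Genes of caudal brainstem and spinal cord were compared as well. Of 14 such genes, mostly Hox genes, 4 were tested, each of them higher in ki/ki mice, with a median log2 fold change of 0.49, and none passed. The sums over the 14 genes lay between 372 and 551 in ki/ki and between 337 and 504 in wt/wt mice, and most of each sum was Slc6a5, a glycine transporter, at 393 ± 47.8 and 376 ± 50.3 (SD, n = 8 each). Hoxb4, named after its values had been seen, was 7.25 ± 2.77 and 2.62 ± 2.07, which is 1.397 on the log2 scale (adjusted p = 0.165 in limma). The mean log2(value + 1) of the 4 tested genes was 4.33 ± 0.465 in ki/ki and 3.71 ± 0.513 in wt/wt mice, a difference of 0.61, and 4 of 8 ki/ki mice exceeded every wt/wt mouse. Whether the amount of caudal tissue had a part in the differences of C1q and C4 was not tested.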

How the data were processed

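According to the methods of the study, stranded total RNA libraries depleted of ribosomal RNA were read as pairs, trimmed with Trim Galore 0.6.10 and cutadapt 3.4, aligned to GRCm39 with STAR 2.7.10b, counted per gene with summarizeOverlaps and tested with DESeq2 1.40.2. The authors deposited a score per gene and mouse, a linear normalized value rounded to a whole number whose normalization is not given in the sources used here. The series table and the 16 tables of single mice were identical. Count tests were therefore not used. Each library's factor was estimated by maximum likelihood from skipped and repeated whole numbers.

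Values entered limma 3.58.1 in R 4.3.3 (trend, robust) as log2(value + 1) for genes with a sum over 16 and a value over 5 in 4 or more mice of either genotype, with Benjamini-Hochberg adjustment over 23244 genes and a threshold of 0.1. The simulated data on which this was tested are not quoted. Fold changes on this scale understate those of low genes. Correlations were tested with all orders of 8 mice (scipy 1.17.1, numpy 2.4.6, pandas 2.3.3 in Python 3.11.15), and transcripts were aligned with Biopython 1.88. Figures were drawn with matplotlib 3.10.9. Counting noise is that of the reads behind the mean value at the estimated factor.

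Positions, symbols (52017 of 55404 genes) and transcripts are from GENCODE M21 (GRCm38), promoters from RefSeq. Levels per kilobase use the summed exon length. Members, gene lists and tests were chosen with earlier results of these data known. Named were the 9 members, other complement genes past the threshold or among the 2 with the highest mean of their role, up to 3 abundant genes of a marker list, the 10 genes most like C1q and C4b, and same-strand overlapping genes. Some genes that fall under this rule are not reported here. Alternatives were other pseudocounts, no filter, scaling to equal totals, no robust step, a replicate block, C4a and C4b summed, and leaving out each mouse.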

Additional observations from a re-analysis of the deposited data

Results flagged for a closer look

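Of 56 groups of 8 mice, each holding the values of a named complement gene or of a summary of C1q or C4 in a genotype, 5 had a highest or lowest mouse whose gap to the nearest other mouse, as a share of the whole range, exceeded Dixon's critical value for 8 values. Chance flags about 1 in 20 groups. Serping1 was 65 in wt/wt mouse 1, against 83 to 97 in the other wt/wt mice. Clu was 5618 in Tecpr2 ki/ki mouse 3, where the other mice lay between 4837 and 5138. In Tecpr2 ki/ki mouse 2, C2 was 22 (9 to 15 in the others) and Cfb was 11 (2 to 6 in the others), both at values where a few reads decide. C1qbp was 237 in Tecpr2 ki/ki mouse 1 and 263 to 284 in the others. The explanations were not tested.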

How the results depend on the processing

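Every alternative left the fold changes of C1qa, C1qb, C1qc, C4a, C4b, C3, Clu and Itgam positive, and without single mice they lay between 0.28 and 0.33, 0.38 and 0.45, 0.27 and 0.32, 0.50 and 0.62, 0.67 and 0.71, 0.12 and 0.31, 0.063 and 0.094, and 0.095 and 0.20. Serping1 lay between -0.090 and 0.0061, the latter without ki/ki mouse 5. Without a filter 20 genes were called over all genes and 0 of the other complement genes, in place of 31 and 1. Without single mice these counts were 25 to 40 and 0 to 1. With libraries scaled to the same total, Masp1 (0.0034) and Susd4 (0.0028) turned sign. The cause was not tested.

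Without single mice, named genes near 0 also turned sign, with C2 between -0.28 and 0.016, Masp1 between -0.030 and 0.035, Cfp between -0.026 and 0.087, Cfb between -0.37 and 0.029, C8g between -0.15 and 0.16, Csmd1 between -0.018 and 0.017, and Susd4 between -0.022 and 0.014. Without the 2 mice farthest from the median, r turned to -0.31 for C1qa with C1qc and -0.18 for Serping1 with fibroblast genes in Tecpr2 ki/ki mice, and to 0.24 for C1q with C4b, -0.064 for C1q with microglia genes, -0.0039 for C4b with microglia genes, -0.24 for C1qa with C1qc and -0.35 for Serping1 with C4b in wt/wt mice. For Itgam with microglia genes in Tecpr2 ki/ki mice, r was 0.018 with equal totals.

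Leaving out single mice moved r across 0 in Tecpr2 ki/ki mice for C4a with C4b (-0.46 to 0.067), C3 with fibroblast genes (-0.23 to 0.84), Itgam with microglia genes (-0.37 to 0.58) and Serping1 with C4b (-0.11 to 0.53). In wt/wt mice it did so for C1q with C4b (-0.20 to 0.16), C4a with C4b (-0.19 to 0.18), Serping1 with fibroblast genes (-0.0097 to 0.26), Itgam with microglia genes (-0.42 to 0.095) and Serping1 with C4b (-0.058 to 0.35).

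Mice with the same number shared little of their deviation, with r between -0.039 and 0.15 over 13765 genes and 1 of 8 pairs over 0.1. Of the Tecpr2 ki/ki mice, 3 of 8 were closest to their own number. Whether the numbers pair the mice cannot be decided from this, since such an r can miss a link that holds for few genes. With a replicate block 46 genes were called over all genes, and 1 of the other complement genes.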

Other observations

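The 18 other complement genes that did not reach the filter were low. The highest value was 9, of Colec11, a lectin pathway collectin, which lay between 2 and 9 in Tecpr2 ki/ki and between 0 and 6 in wt/wt mice. Mbl1, a plasma mannose-binding lectin, was listed at 0 in each of the 16 mice. Hc, which encodes C5, lay between 1 and 5 in Tecpr2 ki/ki and between 1 and 8 in wt/wt mice, and C9, the pore-forming component, lay between 0 and 3 and between 0 and 1. Cfd, factor D, lay between 0 and 2 and between 0 and 1, and Cfi, factor I, between 0 and 4 and between 0 and 2. Vsig4, a complement receptor of tissue macrophages, reached 1 in Tecpr2 ki/ki and 0 in wt/wt mice. Differences between genotypes in these genes were not tested. These genes are named after their values had been seen.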
